A study of Camelus dromedarius with 4 samples.

Results

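Transcripts of the RAB genes were examined in the supraoptic nucleus (SON) of the dromedary camel (Camelus dromedarius) in winter and in summer. The SON is the hypothalamic nucleus whose magnocellular neurones make vasopressin and oxytocin and send them in dense-core granules to the posterior pituitary. Members were all symbols made of RAB and a digit in the authors' table of season means that had a mean in both seasons, which gave 64 of the 16049 symbols with means. RAB5C was listed without means and has no value here. Of the 64 members, 55 encode RAB GTPases and 9 encode proteins that carry the name of a RAB they bind or regulate (RAB3GAP1, RAB3GAP2, RAB3IP, RAB3IL1 and RAB11FIP1 to RAB11FIP5). The tissue came from healthy, age-matched adult male camels of the Tergui breed, with 2 libraries from winter and 2 from summer and no treatment named in the labels. The winter animals were killed on 1 day in one Algerian town and the summer animals on 1 day in another, so season, place and day cannot be told apart.

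RAB proteins are small GTPases that mark the membranes of the secretory and endocytic pathways. In the GTP-bound form a RAB sits on its membrane and recruits effectors such as tethers and motor proteins, and in the GDP-bound form it is withdrawn to the cytosol by GDI. Exchange factors switch RABs on and GTPase-activating proteins switch them off. In neurosecretory cells RAB3 and RAB27 are known for the docking and release of dense-core granules, RAB1 for transport from the endoplasmic reticulum to the Golgi, RAB5 for early endosomes, RAB11 for recycling endosomes and RAB7 for late endosomes and lysosomes.

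The count files held 4379162 to 6902037 reads on gene models per library, 20.7% to 27.8% of the tallied reads, but their gene models carry no names. The values of named genes therefore come from the season means, each of which is the average over the 2 libraries of a season of reads divided by a size factor (normalized reads). Because each mean is a sum of whole reads, the reads of both libraries could be solved for 35 of the 64 members, of which 29 had a season mean of 10 or more, the filter used throughout. The libraries so recovered are called winter A (size factor 1.33), winter B (0.946), summer A (0.922) and summer B (0.877), and cannot be assigned to replicate numbers. The recovered reads do not match the deposited count files: of 3661 recovered symbols with over 200 reads, the 4 read numbers of 1 were found together on a gene model. What sets them apart was not tested, and all values per library and p-values of named genes given here rest on the recovered reads. The members solved in this way had low means (median 45.5, against 261 for the other 29 members). The summer libraries stood apart from each other: over the 7620 recovered symbols past this filter, the log2 normalized reads of summer A and summer B had a Pearson correlation across genes (which are not independent replicates) of 0.577, and those of the other library pairs 0.714 to 0.838. Where summer reads were solved, neuronal, astrocytic and ependymal markers were higher in summer B than in summer A. The more abundant GFAP, SLC1A2, MAP2 and NEFL had no single solution in summer. The neuronal markers with solved summer reads (RBFOX3, SNAP25, SYT1 and TUBB3) summed to 314 normalized reads in summer A and 845 in summer B, and all 4 were higher in summer B. All 4 astrocyte markers with solved summer reads were also higher in summer B (sums of 247 and 639), AQP4 only just (9.76 and 10.3). The same held for all 3 ependymal markers (10.8 and 113), mostly through TMEM212 (5.42 and 93.5). FOXJ1 (2.17 and 11.4) and CCDC153 (3.25 and 7.98) had few reads. The other types were mixed. The 3 solved microglial markers summed to 281 and 184, with 1 (TMEM119) higher in summer B. The 5 endothelial markers summed to 846 and 753, with 2 (CLDN5 and CDH5) higher in summer B. The 3 pericyte markers summed to 194 and 223, with 2 higher in summer B. MOBP, the 1 oligodendrocyte marker solved in summer, had 196 and 149. Of all 12154 symbols past the filter with solved summer reads, 6618 were higher in summer B. None of the listed markers that had means was at 0 in both seasons. AVP (listed as a putative AVP) and OXT, the hormone genes that define the nucleus, had means of 11822 and 592 in summer and 2560 and 621 in winter. The pair is alike in part of its coding sequence in other mammals, and shared reads were not assessed.

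The RAB members as a group differed little between the seasons. Among the 58 members with a season mean of 10 or more, 30 had the higher mean in winter and 28 in summer (53.8% of all symbols were higher in summer), and the median log2 ratio of winter over summer was 0.016 (-0.036 over all 13808 symbols past the same filter). The ratios ran from -0.76 for RAB33B to 1.40 for RAB40C. Of these 58, only RAB40C differed by more than 2-fold between the season means, against 7.26% of all symbols. It passed the filter only through winter. Among the 55 members with a mean of at least 10 in both seasons 0 differed by 2-fold, against 3.92% of the 12946 such symbols. At 1.5-fold 10 members differed, against 22.3% of all symbols. Of these, 7 were higher in winter (RAB40C, RAB3A, RAB39B, RAB1B, RAB33A, RAB8A and RAB26; 10.1% of all symbols) and 3 in summer (RAB33B, RAB15 and RAB37; 12.2% of all symbols). RAB40C, RAB26 and RAB15 passed the filter only through the season in which they were higher. Of the 55 members past it in both seasons, 7 differed by 1.5-fold (12.7%, against 18.2% of all such symbols). The other 48 of the 58 members lay within 1.5-fold, which is 82.8% of the members and compares with 77.7% of all symbols. The 6 members under the filter were RAB17, RAB38 and RAB7L1, described below, and RAB19, RAB25 and RAB43. The means of RAB19, RAB25 and RAB43 were 3.70, 2.04 and 7.70 in winter and 7.90, 3.28 and 8.79 in summer.

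**Figure D1:**
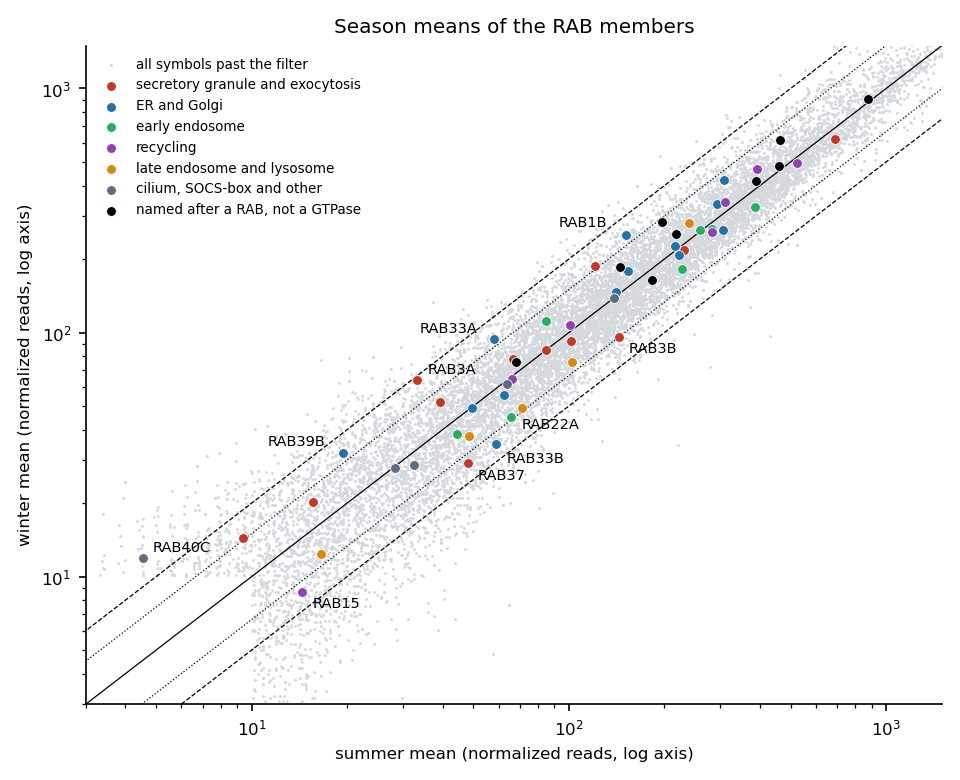
Summer mean (horizontal) and winter mean (vertical) of each symbol in normalized reads, both on log axes, with all symbols past the filter in grey and the 58 RAB members coloured by role. The solid line marks equal means, the dotted lines 1.5-fold and the dashed lines 2-fold. RAB40C alone lies past the 2-fold lines, and 48 members lie between the dotted lines.

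No RAB member passed the test for a difference by season. In edgeR's quasi-likelihood fit to the recovered reads, 0 of 29 members and 0 of all 7620 symbols (0%) had an adjusted p under 0.05. At an unadjusted p under 0.05 there were 0 members, against 152 symbols (1.99%). The smallest unadjusted p among the members was 0.132, for RAB33A, with an adjusted p of 0.982. edgeR's exact test and DESeq2 each called 1 symbol, which was not a RAB member. The remaining 29 members have several possible pairs of reads, and when all 92 pairs were put through the same quasi-likelihood fit, 0 were called and the smallest unadjusted p was 0.0899, for RAB1B (edgeR). With 2 libraries a season an exact permutation test of a single gene cannot go below 0.333. In these bulk samples fewer cells of a type and less RNA per cell cannot be told apart.

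For 22 of the 29 members with recovered reads the libraries of the seasons overlapped. Winter was the higher season in every pair of libraries for 2 members (RAB33A and RAB40C; 13.3% of all recovered symbols), and summer in every pair for 5 (RAB33B, RAB32, RAB9A, RAB15 and RAB37; 17.2%). Of the other 29 members, 22 overlapped under every pair of reads that gives their means, 6 lay higher in winter under some pairs (RAB1B, RAB7A, RAB8A, RAB11A, RAB11FIP4 and RAB11FIP5), 1 lay higher in summer under some (RAB3IP) and 0 were separated under all.

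**Figure D2:**
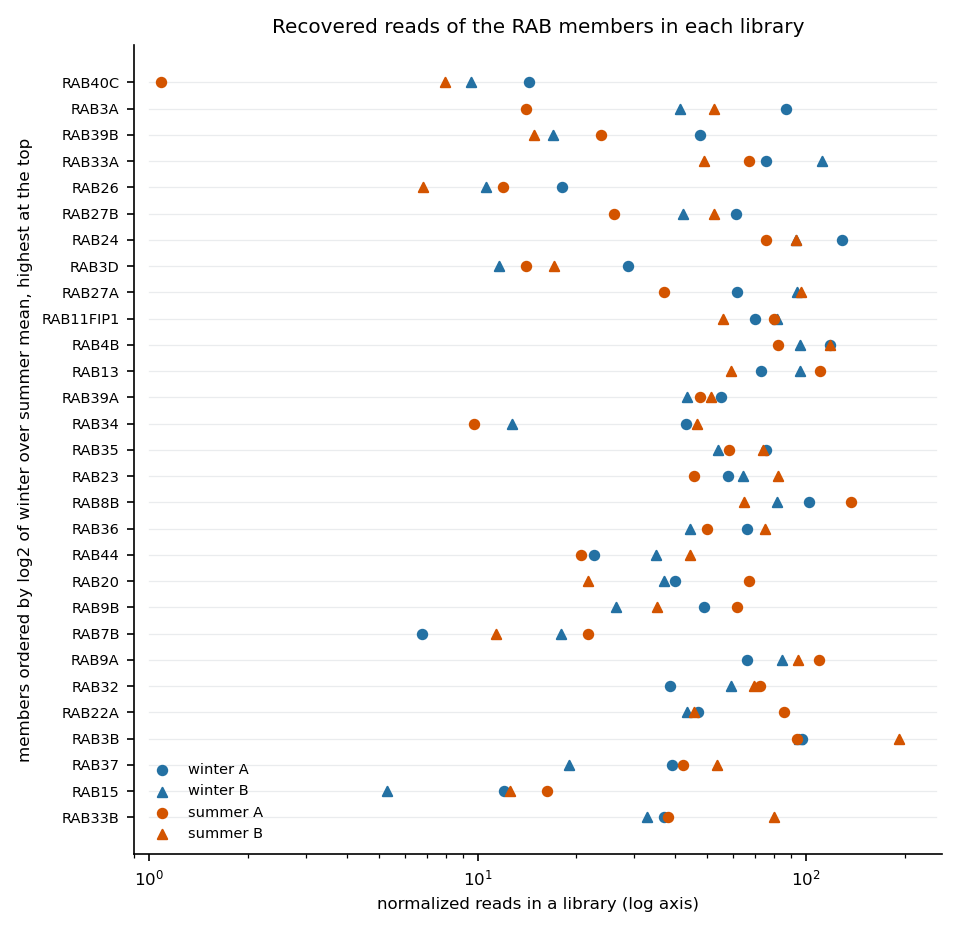
Normalized reads (log axis) of the 29 RAB members with recovered reads in each of the 4 libraries, with winter in blue and summer in orange, circles for library A and triangles for library B. Members are ordered by the log2 ratio of their season means, highest at the top. In 22 members the blue and orange symbols overlap, and in RAB40C, RAB3A and RAB34 the summer A circle lies far to the left of the summer B triangle.

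The RAB3 subfamily, which guides synaptic vesicles and dense-core granules to their release sites, held members higher in each season. RAB3A, the neuronal member that is best known from synaptic vesicles, had 86.8 and 41.2 normalized reads in winter A and winter B and 14.1 and 52.4 in summer A and summer B (115, 39, 13 and 46 reads). Summer B thus lay between the winter libraries, and summer A was well below all others. The winter mean was 1.92-fold the summer mean (64.0 and 33.3), with a fitted log2 change of 0.97 ± 0.66 (SE, n = 2 per season; edgeR adjusted p = 0.982). Without summer B, RAB3A was called (log2 change 2.19, edgeR adjusted p = 0.0341), beside 221 of 7620 symbols (2.90%), and it was the only RAB member called. Without summer A the log2 change was 0.30 (edgeR adjusted p = 0.900). The neuronal markers moved the same way as RAB3A, lower in summer A than in summer B where solved, and 5 of the 6 with means were higher in winter. RBFOX3, the neuronal marker solved in all libraries, had 53.6 and 37.0 normalized reads in winter and 15.2 and 33.1 in summer. The part of the neuronal share of the dissected tissue in the RAB3A difference was not tested.

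RAB3B, a paralogue found in secretory cells and some neurones, was higher in summer in the means (143 against 96.3). Its normalized reads were 97.3 and 95.2 in winter A and winter B and 94.3 and 193 in summer A and summer B. The difference therefore came from summer B, and the other libraries lay within a few reads of each other (fitted log2 change -0.57 ± 0.41, edgeR adjusted p = 0.982). RAB3D, known from exocrine and other secretory granules, had few reads, 28.7 and 11.6 normalized in winter and 14.1 and 17.1 in summer. Its libraries overlapped (log2 change 0.42 ± 0.75, edgeR adjusted p = 0.982). RAB3C, a neuronal paralogue, had means of 622 in winter and 692 in summer, and its libraries overlapped under all 6 pairs of reads that give them.

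RAB27A and RAB27B, which tether granules to the plasma membrane through synaptotagmin-like effectors, were both lowest in summer A. RAB27A had 61.9 and 94.1 normalized reads in winter A and winter B and 36.9 and 96.9 in summer A and summer B. RAB27B had 61.1 and 42.3 in winter and 26.0 and 52.4 in summer. For each gene the seasons overlapped, with summer B above at least 1 winter library. The fitted log2 changes were 0.22 ± 0.52 for RAB27A (edgeR adjusted p = 0.985) and 0.41 ± 0.52 for RAB27B (edgeR adjusted p = 0.982). RAB37, another RAB of secretory granules, was separated in the other direction, with 39.2 and 19.0 normalized reads in winter and 42.3 and 53.6 in summer. The gap between the nearest libraries, winter A and summer A, was smaller than the gap between the winter libraries (log2 change -0.68 ± 0.55, edgeR adjusted p = 0.982). RAB26, a RAB of granule maturation, had 18.1 and 10.6 in winter and 11.9 and 6.84 in summer, which overlap. RAB8A, which acts in transport from the Golgi to the plasma membrane, had means of 187 in winter and 121 in summer, and its libraries were separated under 1 of the 2 pairs of reads that give these means. Its paralogue RAB8B had means of 92.0 in winter and 101 in summer. RAB10 and RAB13, of the same branch, had means of 218 and 84.7 in winter and 231 and 84.9 in summer. Over the 12 members of the secretory granule and exocytosis class, 6 means were higher in winter and 6 in summer, with a median log2 ratio of 0.11.

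The RABs of the endoplasmic reticulum and Golgi included several of the larger ratios in both directions. RAB1B, one of the pair that drives traffic from the endoplasmic reticulum to the Golgi, had means of 250 in winter and 151 in summer (1.66-fold), while RAB1A, the other, had 264 and 307. The near-identical RAB1 proteins are encoded by similar coding sequences, and reads shared between these or other RAB paralogues were not measured. The possible winter reads of RAB1B run from 152 in winter A and 365 in winter B to 522 and 101, so its spread within winter is unknown. RAB33A, a neuronal and immune-cell RAB of the Golgi and its vesicles, had 75.5 and 112 normalized reads in winter and 67.2 and 49.0 in summer. Both winter libraries were higher, yet winter A and summer A were closer to each other than the libraries of either season were (log2 change 0.68 ± 0.40, edgeR adjusted p = 0.982). RAB33B, its paralogue that binds the autophagy protein ATG16L1, went the other way, with 37.0 and 32.8 in winter and 38.0 and 79.8 in summer. Summer A was less than 1 normalized read above winter A, so the separation of RAB33B rests on summer B (log2 change -0.74 ± 0.52, edgeR adjusted p = 0.982). RAB39B, a neuronal RAB known from X-linked intellectual disability, had 47.5 and 16.9 in winter and 23.9 and 14.8 in summer. Winter A alone stood above the rest (log2 change 0.77 ± 0.72, edgeR adjusted p = 0.982), and its paralogue RAB39A had nearly equal means (49.2 in winter and 49.5 in summer). RAB6A and RAB6B, of retrograde Golgi transport, had means of 337 and 423 in winter and 292 and 308 in summer, and RAB2A and RAB2B, of the early secretory pathway, had 226 and 208 in winter and 217 and 223 in summer. RAB18, of lipid droplets and the endoplasmic reticulum, and the Golgi RABs RAB30 and RAB36 had means of 178, 146 and 55.4 in winter and 154, 140 and 62.6 in summer. The 13 members of the class had a median log2 ratio of 0.06, with 8 higher in winter and 5 in summer.

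No early endosomal RAB past the filter was separated between the seasons or past 1.5-fold. RAB5A and RAB5B, which organise fusion of early endosomes, had means of 182 and 266 in winter and 228 and 282 in summer, and under every pair of reads their libraries overlapped. RAB22A, also of early endosomes, had 46.8 and 43.4 normalized reads in winter and 85.7 and 45.6 in summer, so that only summer A stood apart (log2 change -0.54 ± 0.46, edgeR adjusted p = 0.982). RAB20, a RAB of phagosomes and endosomes, had 40.0 and 37.0 in winter and 67.2 and 21.7 in summer, which places the winter libraries between the summer ones. RAB24, which is linked to autophagy, was the member of the class with the highest ratio, at 129 and 93.1 in winter and 75.9 and 93.5 in summer. RAB21 and RAB31 had means of 264 and 328 in winter and 258 and 385 in summer. Of the 7 members past the filter, 2 had the higher mean in winter and 5 in summer (median log2 ratio -0.21), where 53.8% of all symbols were higher in summer.

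Among the late endosomal and lysosomal RABs, RAB7A, which directs fusion with lysosomes, had means of 280 in winter and 239 in summer. RAB9A and RAB32 were among the separated members. RAB9A, which returns receptors from late endosomes to the Golgi, had 66.4 and 84.6 normalized reads in winter and 110 and 94.6 in summer. The winter B and summer B values were the nearest pair (log2 change -0.44 ± 0.35, edgeR adjusted p = 0.982). RAB32, which serves mitochondria and lysosome-related organelles, had 38.5 and 59.2 in winter and 72.7 and 69.5 in summer. Its summer libraries lay close together, and the wider gap was between the winter libraries (log2 change -0.56 ± 0.42, edgeR adjusted p = 0.982). RAB9B, the paralogue of RAB9A, had 49.0 and 26.4 in winter and 61.8 and 35.3 in summer, with overlap. RAB7B, of transport from endosomes to the Golgi, had 9, 17, 20 and 10 reads in winter A, winter B, summer A and summer B. Of the 5 members past the filter, 4 had the higher mean in summer, where 53.8% of all symbols were higher in summer. The class median of the log2 ratio was -0.42. RAB38, the paralogue of RAB32, had 5 reads in winter A and 0 in the other libraries. RAB7L1 (also called RAB29), known as a partner of LRRK2, had 1 read in each winter library, 0 in summer A and 3 in summer B. A count of 0 allows up to 3 reads, and no fold is given for either gene.

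The recycling RABs differed by small amounts, apart from RAB15. RAB11A, the defining RAB of recycling endosomes, had means of 468.6 in winter and 391.6 in summer, and no row for RAB11B was among the symbols. RAB4A and RAB4B, of fast recycling, had means of 342 and 107 in winter and 311 and 100 in summer, and RAB14 and RAB12 had 496 and 259 in winter and 525 and 282 in summer. RAB35, of recycling and neurite outgrowth, had 75.5 and 53.9 normalized reads in winter and 58.6 and 74.1 in summer. RAB15, a neuronal RAB of recycling endosomes, had 16, 5, 15 and 11 reads in winter A, winter B, summer A and summer B. These are 12.1 and 5.29 normalized reads in winter and 16.3 and 12.5 in summer, so that winter A and summer B differ by less than 1 normalized read (log2 change -0.66 ± 0.83, edgeR adjusted p = 0.982). Of the 7 members past the filter, 3 were higher in winter and 4 in summer, with a median log2 ratio of -0.04.

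RAB40C, which joins a RAB domain to a SOCS box and acts in a ubiquitin ligase, was the one member past the filter with means over 2-fold apart, and was under 10 in summer. It had 19 and 9 reads in winter A and winter B and 1 and 7 in summer A and summer B. The season means were 11.9 and 4.53 normalized reads, a ratio of 2.63, with a fitted log2 change of 1.43 ± 1.05 (edgeR adjusted p = 0.982). Winter B and summer B were close (9.52 and 7.98), and without summer A the log2 ratio of the means was 0.58. RAB34, a RAB of ciliogenesis, had nearly equal season means (27.9 in winter and 28.2 in summer) made from 43.0 and 12.7 in winter and 9.76 and 46.7 in summer. RAB23 and RAB28, which also act at cilia, had means of 61.3 and 139 in winter and 63.8 and 139 in summer, and RAB44, a long RAB with EF-hands, had 28.8 in winter and 32.5 in summer. RAB17, an epithelial RAB counted in the early endosomal class, was under the filter, with means of 1.06 in winter and 7.41 in summer. It had 0 reads in winter A, 2 in winter B, 0 in summer A and 13 in summer B. Nearly all of its reads were thus in summer B.

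The 9 proteins named after a RAB lay within 1.5-fold of equal means. RAB3GAP1 and RAB3GAP2, the subunits of the complex that inactivates RAB3 and switches on RAB18, had means of 416 and 905 in winter and 389 and 876 in summer. RAB3IP and RAB3IL1, exchange factors for RAB8, had 164 and 186 in winter and 183 and 145 in summer. The RAB11 effectors RAB11FIP1 to RAB11FIP5 had higher means in winter, with log2 ratios from 0.06 for RAB11FIP3 to 0.54 for RAB11FIP5. RAB11FIP1, the one with recovered reads, had 70.2 and 81.4 in winter and 80.2 and 55.9 in summer, which overlap (log2 change 0.15 ± 0.38, edgeR adjusted p = 0.985). In all, 8 of the 9 means were higher in winter and 1 in summer, where 53.8% of all symbols were higher in summer. Some of these log2 ratios were near 0 (0.05 for RAB3GAP2 and 0.06 for RAB11FIP3).

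**Figure D3:**
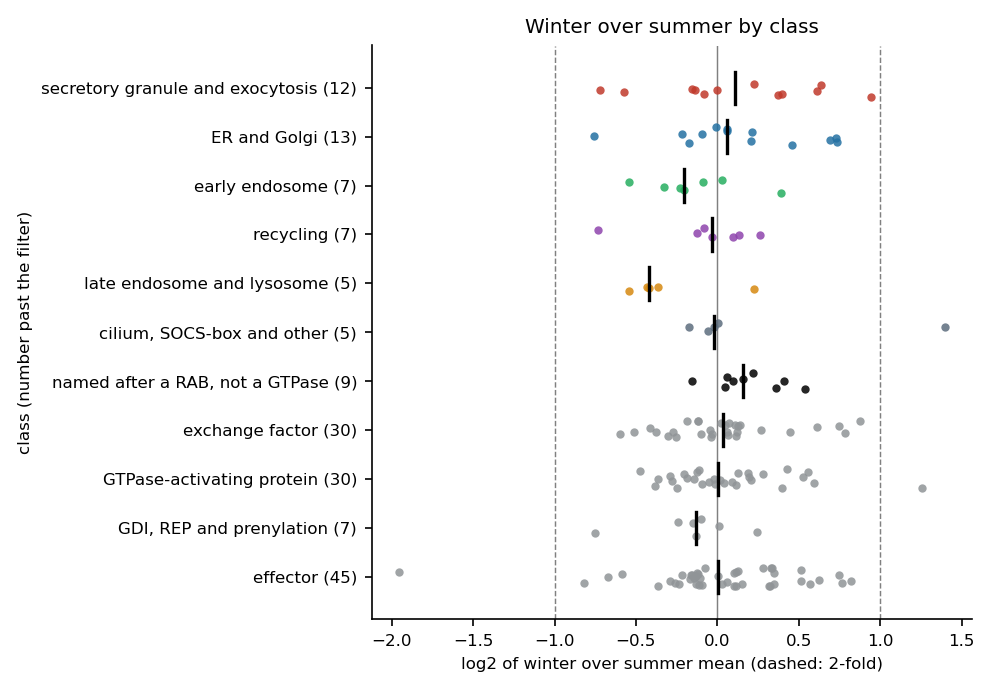
Log2 ratio of the winter over the summer mean for each gene past the filter, by role of the RAB member (coloured) and by class of regulator (grey), with the number of genes in parentheses. The black bars are class medians and the dashed lines mark 2-fold. The medians of the RAB classes run from -0.42 (late endosome and lysosome) to 0.16 (proteins named after a RAB).

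The summer libraries differed from each other by more than the seasons did for most members. Among the 29 members with recovered reads, the median size of the log2 difference was 0.39 between the season means, 0.81 between the summer libraries and 0.57 between the winter libraries. Over all recovered symbols the same medians were 0.39, 0.66 and 0.45. A season mean averages 2 libraries, so its differences are damped relative to those between single libraries. The difference between the summer libraries was larger than that between the seasons for 21 of the 29 members (72.4%, against 68.9% of all recovered symbols). The summer libraries were more than 2-fold apart for 10 members, against 34.4% of all recovered symbols. RAB8B and RAB20 were higher in summer A (2 of 29, against 6.68% of all recovered symbols), and RAB3A, RAB3B, RAB27A, RAB27B, RAB33B, RAB34, RAB40C and RAB44 were higher in summer B (8 of 29, against 27.8%), so the split was close to that of all symbols. The winter libraries were more than 2-fold apart for 7 members (16.8% of all recovered symbols), with RAB7B higher in winter B and RAB3A, RAB3D, RAB15, RAB34, RAB37 and RAB39B higher in winter A. When each library was left out in turn, the log2 ratio changed sign for 18 of the 29 members and kept it for 11. These were the 7 separated members, whose sign cannot change because their libraries do not overlap, and RAB3A, RAB22A, RAB24 and RAB26. The share of all recovered symbols that changed sign was not counted.

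**Figure D4:**
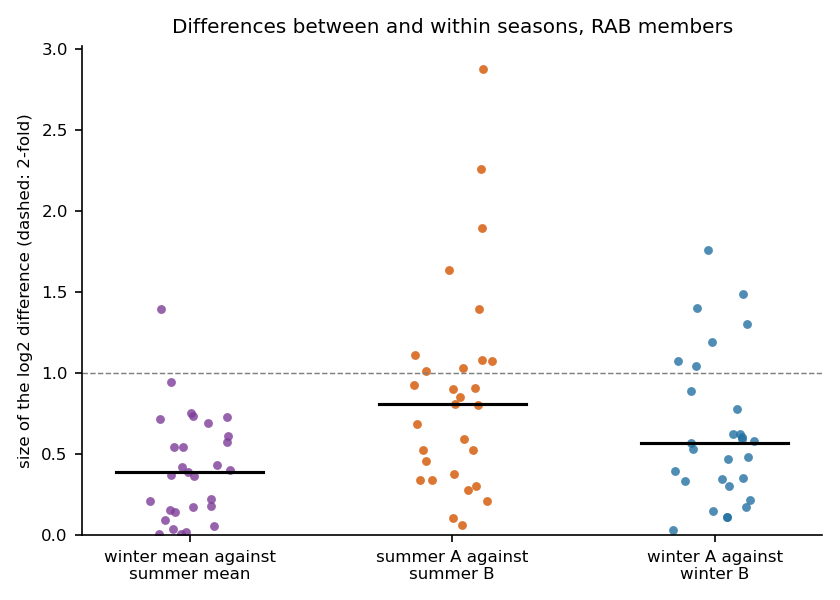
Size of the log2 difference for the 29 RAB members with recovered reads, between the season means, between the summer libraries and between the winter libraries. Each point is a member, the black bars are medians (0.39, 0.81 and 0.57) and the dashed line marks 2-fold. One member passes 2-fold between the seasons, 10 between the summer libraries and 7 between the winter libraries.

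By role, the direction of the difference between the summer libraries was mixed. Summer reads were solved for 55 of the 58 members past the filter, of which 33 were higher in summer A and 22 in summer B. Of all 12154 symbols solved in summer, 5533 were higher in summer A and 6618 in summer B. The median log2 ratio of summer A over summer B was 0.21 for the members and -0.07 over all these symbols. All 5 late endosomal and lysosomal members and 5 of 7 early endosomal members were higher in summer A. Of the late endosomal members, RAB7A (242 and 237) and RAB32 (72.7 and 69.5) were nearly equal between the summer libraries. In the secretory granule and exocytosis class 6 of 11 were higher in summer B, and in the class of cilium, SOCS-box and other RABs 4 of 5 were. RAB3A, RAB3B, RAB27A and RAB27B were among the 8 of 55 members more than 2-fold higher in summer B. The same held for 2302 of the 12154 symbols solved in summer, and for 27.8% of the 7620 solved in both seasons. The neuronal, astrocyte and ependymal markers with solved summer reads were also higher in summer B. RAB20, known from phagosomes, was higher in summer A (67.2 and 21.7), as were the microglial markers AIF1 (147 and 86.6) and CSF1R (77.0 and 35.3), but not TMEM119 (56.4 and 61.6). The part of cell make-up in these differences was not tested.

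**Figure D5:**
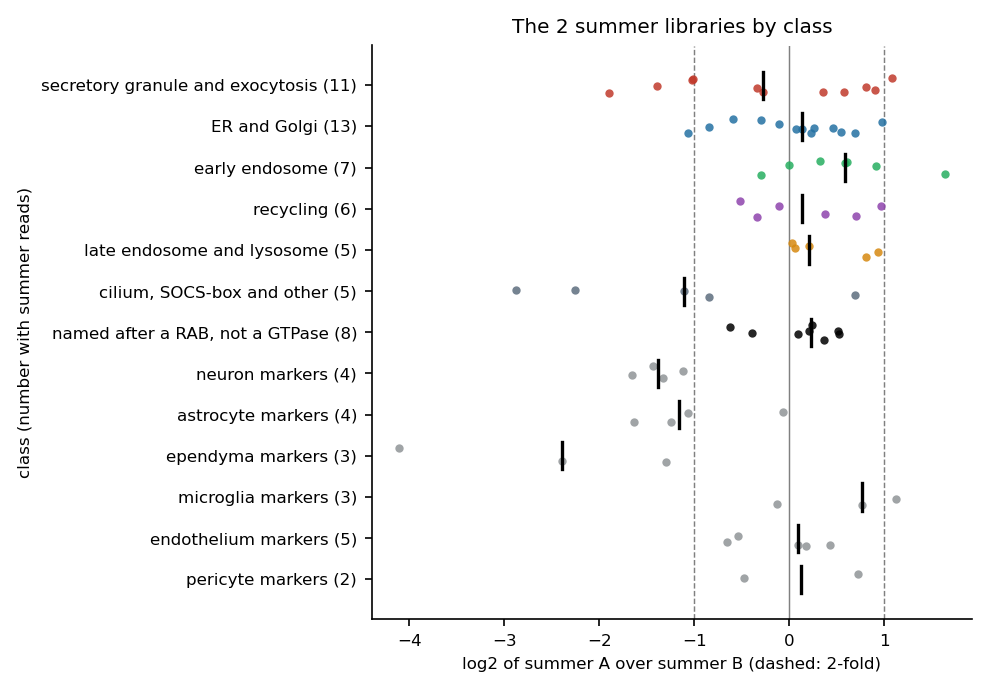
Log2 ratio of summer A over summer B for RAB members past the filter (coloured by role) and for cell type markers (grey) with solved summer reads, with the number of genes in parentheses. The black bars are medians and the dashed lines mark 2-fold, and KCNJ8, a pericyte marker at 0 in summer A, is not drawn. The 4 neuronal markers lie below -1. All 5 late endosomal and lysosomal RABs lie above 0, with RAB7A (0.03) and RAB32 (0.06) close to it.

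The regulators and effectors of RABs were also divided evenly between the seasons. Of 118 listed genes in the table, 112 passed the filter, with 56 higher in winter and 56 in summer and a median log2 ratio of -0.01. Past 1.5-fold there were 10 genes higher in winter and 6 in summer, and past 2-fold 1 in each direction (10.1%, 12.2% and, in both directions together, 7.26% of all symbols). With the same quasi-likelihood test 0 of the 29 with recovered reads were called, and 1 had an unadjusted p under 0.05. That gene was SYTL3, a synaptotagmin-like effector of RAB27. It had 12.1 and 10.6 normalized reads in winter and 21.7 and 66.1 in summer, so that both summer libraries were higher and summer B stood far above summer A (log2 change -1.93 ± 0.75, unadjusted p = 0.0359 and adjusted p = 0.982 by edgeR). MYO5B, the myosin motor of RAB11 vesicles, had 58.1 and 49.7 in winter and 84.6 and 106 in summer, which do not overlap (log2 change -0.81 ± 0.37, edgeR adjusted p = 0.982). RABAC1, an acceptor of prenylated RABs, had means of 105 in winter and 177 in summer, and its winter reads were not solved. Its normalized reads were 112 in summer A and 243 in summer B, so that summer A lay near the winter mean.

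The highest ratios of the list were in TBC1D10B, a GTPase-activating protein, with means of 260 in winter and 109 in summer. Its normalized reads were 71.6 in summer A and 146 in summer B, and its winter reads were not solved. DENND1C, of a family of exchange factors for RAB35, had 74.7 and 62.4 normalized reads in winter and 34.7 and 39.9 in summer. The libraries of each season lay close together in this gene and did not overlap with the other season (log2 change 0.88 ± 0.42, edgeR adjusted p = 0.982). SYTL1, another RAB27 effector, had 16, 15, 2 and 12 reads in winter A, winter B, summer A and summer B. Winter B and summer B held similar normalized reads of SYTL1 (15.9 and 13.7), and summer A was the low library, as in RAB27A and RAB27B. The other synaptotagmin-like effectors were mixed. SYTL2 was also lowest in summer A, with 120.0 and 119.5 in winter and 97.6 and 158 in summer. SYTL4 was highest in summer A, with 96.6 and 82.5 in winter and 152 and 117 in summer, which do not overlap. In SYTL3 summer A lay above both winter libraries. SYTL5 had means of 172 in winter and 200 in summer, with 164 in summer A and 237 in summer B, and its winter reads were not solved. CHM and CHML, which present new RABs for prenylation, had 102 and 88.3 in winter and 114 and 87.9 in summer. The regulators and effectors separated between seasons numbered 2 higher in winter and 5 higher in summer among the 29 with recovered reads, against 13.3% and 17.2% of all recovered symbols.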

How the data were processed

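The authors aligned reads with TopHat to their own dromedary assembly and deposited HTSeq read counts per gene model for each library. Libraries were stranded, and the strand setting of the counting is not given in the sources used here. In the deposited table the signal of a symbol is the average over the libraries of a season of size-factor-scaled counts (DESeq), printed to 6 digits. Its columns of edgeR fold changes and p-values hold the study's own comparison and were not used. Each season mean was solved for 2 whole numbers of reads, given what 1 read is worth in each library. A single solution was found for 9861 of 16049 symbols, and for 7620 of 13808 with a season mean of 10 or more (55.2%), mostly those with low means. The test on recovered reads was that of edgeR 4.0.16 under R 4.3.3 (glmQLFit with legacy set to FALSE, glmQLFTest, size factors as recovered, Benjamini-Hochberg adjustment over 7620 symbols). The common biological coefficient of variation was 0.460. DESeq2 1.42.0, limma 3.58.1 (voom), edgeR's exact test and other scalings and filters were alternatives. Figures were drawn with matplotlib 3.10.9. The scripts were tested on simulated data. Members, classes and lists were chosen with earlier results of these data known. Of the 64 members, 62 matched a RefSeq symbol or synonym. Named with values were the RAB3, RAB27, RAB1, RAB5, RAB7 and RAB11 genes, the 5 largest and 5 smallest ratios, members called by any test or not overlapping between seasons, and the 3 highest and 3 lowest regulators. Others are named to account for every class and were chosen after their values were seen. The study counts 2 camels per season for RNA sequencing, but the labels do not tie a library to an animal. Floors and reads cover counting error only.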

Additional observations from a re-analysis of the deposited data

How the results depend on the processing

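Of the members past the fold threshold in season means, there were 10 at 1.5-fold and 0 at 3-fold in place of 1 at 2-fold, 4 with no filter on low means, 0 with a mean of at least 10 in both seasons and 0 with a pseudocount of 10. Over the members with recovered reads the count was 4 without any one of the 4 libraries, a setting chosen after seeing the data. The share of all symbols was not counted with a library left out, with no filter, at 3-fold or with a pseudocount. The median log2 ratio of the members ran from -0.19 to 0.14 when 1 library was left out, and lay between -0.04 and 0.05 under the other settings. The count of members called on recovered reads was 0 under all settings run except without summer B, where it was 1 (RAB3A); leaving out 1 library gave 0 to 1. For all named genes it was 1 by edgeR's exact test, 1 by DESeq2 and 0 to 232 with 1 library left out (232 without summer A and 221 without summer B), where the lone summer library is assumed to vary like the others. Among the 29 members tested, leaving out 1 library turned the fitted direction of 18, with log2 changes of -0.9997 to 0.029 for RAB3B, -0.42 to 0.88 for RAB3D, -0.14 to 0.38 for RAB4B, -1.28 to 0.11 for RAB7B, -0.58 to 0.504 for RAB8B, -0.88 to 0.11 for RAB9B, -0.084 to 0.44 for RAB11FIP1, -0.39 to 0.51 for RAB13, -0.8001 to 0.83 for RAB20, -0.42 to 0.43 for RAB23, -0.32 to 1.07 for RAB27A, -0.013 to 0.995 for RAB27B, -1.14 to 1.54 for RAB34, -0.297 to 0.19 for RAB35, -0.49 to 0.16 for RAB36, -0.19 to 0.15 for RAB39A, -0.19 to 1.29 for RAB39B and -0.64 to 0.46 for RAB44. Other settings turned 5 members whose fitted change was near 0. RAB13 was 0.016 by limma-voom and 0.053 with total reads scaling, and RAB23 was 0.0012 with median of ratios scaling and 0.064 with total reads. RAB34 was -0.0096 by the exact test and -0.011 by DESeq2. RAB35 was 0.00030 with TMM, 0.014 with median of ratios and 0.073 with total reads scaling. RAB39A was -0.0045 by the exact test, -0.0054 by DESeq2 and -0.0020 with a mean of at least 10 in both seasons. By an unadjusted p under 0.05 with more than 2-fold, 128 symbols passed, 50.8% of them higher in winter. DESeq2 gave 60, a mean of at least 10 in both seasons 79 and limma-voom 83, and scaling to total reads gave 168, 72.6% of them higher in winter. No paired analysis was possible because the seasons share only 1 replicate number and the recovered libraries carry none. The 2 libraries per season and the low reads of the recovered members limit every difference.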
